A study of Mus musculus with 14 samples.

Results

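The major urinary protein cluster was examined as the 91 poly(A) sites found on either strand of chromosome 4 between positions 59900000 and 62000000 of the mouse genome (mm9), out of 159969 sites in the series. The sites were chosen by position alone, and 62 lay on the minus strand and 29 on the plus strand. They came from 3P-seq, which sequences the 3′ ends of polyadenylated RNA, so that the tags at a site measure, as sequenced reads, how often that end was captured. There were 14 libraries, 1 each from wild-type and miR-22 knockout kidney, liver, lung, heart, muscle and white adipose tissue, and 1 each from mouse embryonic stem cells (mESC) and 3T3 cells, a fibroblast line. All 14 are labelled with the 129S5/SvEvBrd background, the knockout libraries carry no other stated allele or treatment, and the 2 cell libraries have no genotype label. The labels give neither the age, sex or number of the animals nor which tissues came from the same animal, and state that there were no biological replicates.

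Major urinary proteins are small secreted lipocalins, which the liver releases into the blood and the kidney passes into the urine, where they bind and slowly release volatile pheromones. Their genes form a tandem array of near-identical copies and pseudogenes, and in liver their expression is known to be higher in males and to depend on pulsed growth hormone. Some copies are known to be made in other glands that secrete into tears, saliva or the nose.

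The likeness of the copies may limit what a short tag can show. No sequence at the 3′ ends was compared here, and the promoters show only how alike the copies are at their starts. The RefSeq table used here, built on GRCm38.p6, lists 22 Mup genes and 23 Mup pseudogenes on chromosome 4, and a promoter of 250 bases before to 50 bases after the annotated start was at hand for 14 of the genes. Of the 91 pairs of these promoters, 25 were identical at 95% or more of the aligned columns. Below are 2 nearly identical copies from the middle of the array and the 2 copies at its far end, with TATATAA in capitals.
Mup15: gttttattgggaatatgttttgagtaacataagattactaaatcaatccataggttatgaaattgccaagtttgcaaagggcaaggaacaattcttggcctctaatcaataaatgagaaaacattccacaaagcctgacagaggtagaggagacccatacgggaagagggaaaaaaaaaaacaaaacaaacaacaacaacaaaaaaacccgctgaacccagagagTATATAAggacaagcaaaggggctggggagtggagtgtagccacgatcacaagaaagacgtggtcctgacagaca
Mup17: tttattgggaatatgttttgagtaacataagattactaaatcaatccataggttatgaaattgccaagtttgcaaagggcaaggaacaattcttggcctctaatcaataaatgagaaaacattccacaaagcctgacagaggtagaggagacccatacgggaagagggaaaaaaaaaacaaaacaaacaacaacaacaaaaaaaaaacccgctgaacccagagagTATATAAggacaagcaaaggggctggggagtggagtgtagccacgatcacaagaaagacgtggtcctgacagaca
Mup3: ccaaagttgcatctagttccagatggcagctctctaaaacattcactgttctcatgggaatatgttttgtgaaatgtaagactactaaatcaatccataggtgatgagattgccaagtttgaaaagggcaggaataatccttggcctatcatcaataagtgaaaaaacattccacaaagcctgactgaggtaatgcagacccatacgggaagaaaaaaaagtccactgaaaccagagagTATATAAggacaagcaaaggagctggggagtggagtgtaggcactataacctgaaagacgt
Mup21: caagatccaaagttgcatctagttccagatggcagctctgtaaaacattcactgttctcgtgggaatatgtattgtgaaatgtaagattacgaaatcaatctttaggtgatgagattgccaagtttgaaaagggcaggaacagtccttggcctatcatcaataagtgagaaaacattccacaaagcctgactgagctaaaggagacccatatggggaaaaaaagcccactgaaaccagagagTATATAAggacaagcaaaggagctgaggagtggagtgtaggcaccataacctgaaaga
Mup15 and Mup17, at chr4:61439655-61439954 and chr4:61595783-61596082 of GRCm38.p6, both on the minus strand, were 98.7% identical. Mup3 and Mup21, at chr4:62087268-62087567 and chr4:62150792-62151091 on the same strand, were 92.9% identical to each other, whereas Mup15 and Mup3 were 77.3% identical. The letters TATATAA, searched on both strands (its complement TTATATA can overlap it), were found in 13 of the 14 promoters and in 3.24% of the 32851 promoters in the table. Mup7 was the promoter without a match in its window. The match is a description of the letters, and was chosen after the sequences had been read. In gene order, the RefSeq table places Snx30 and Slc46a2 before Mup4, and Zfp37, Slc31a2 and Fkbp15 after Mup21. Its coordinates belong to another build than the tags, so no site is assigned to a gene here, and sites are named by their mm9 position.

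Libraries held between 2036838 tags (white adipose knockout) and 6010465 tags (lung knockout). Tags on chromosome Y were read as a check because the labels give no sex. They lay between 68.1 and 258 RPM, that is tags per 1000000 tags of the library, in the tissue libraries, with 165.6 in wild-type and 201.0 in knockout liver, and at 838.9 in mESC, whereas 3T3 had 7 tags, or 1.65 RPM. The labelled liver, lung and kidney identities were not checked against named marker genes, since the files hold positions and no gene names.

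The tags of the cluster were concentrated in the liver libraries. Wild-type liver had 19879.5 tags at the 91 sites, which is 0.473% of its tags or 4731 RPM (95% exact binomial interval 4666 to 4797), and knockout liver had 20759.3, which is 0.620% or 6201 RPM (6117 to 6285). The next highest were kidney, with 197.4 RPM in wild type and 163.3 in knockout, and lung, with 133.3 and 157.8. mESC had 109.2 RPM, white adipose tissue 55.4 and 63.8, 3T3 cells 51.7, heart 29.5 and 38.4, and muscle 21.2 and 20.7. Every interval covers counting error only, since the tags carry no molecular identifiers. In whole tissue, fewer cells of a type and less RNA per cell cannot be told apart.

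Nearly all of the liver signal came from the interior of the region, and the ends behaved differently. An interior stretch from 60000000 to 61840000, whose bounds were set after the values had been seen, held 57 of the 91 sites, and 99.0% of its 40472.6 tags were from the 2 liver libraries. The stretch had 19592.3 tags in wild-type and 20495.3 in knockout liver, 160 and 198 in kidney, 3 and 16 in white adipose tissue, 1 and 4 in lung, 0 and 1 in muscle, 2 in mESC, and 0 in both heart libraries and in 3T3. On the RPM scale, and with a floor of 3 tags for a library at 0, the liver libraries were at least 5222-fold higher (wild-type liver against wild-type heart) to at least 8644-fold higher (knockout liver against 3T3). The 34 sites of the 2 end segments, in contrast, had between 20.2 and 157 RPM in each of the 14 libraries, with 68.3 in wild-type and 78.9 in knockout liver. They held 585.8 of the 745.8 tags in wild-type and 267 of the 465 in knockout kidney, and 613.3 of the 614.3 in wild-type lung. No site is assigned to a gene, and whether the end-segment tags come from Mup genes was not tested.

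**Figure D1:**
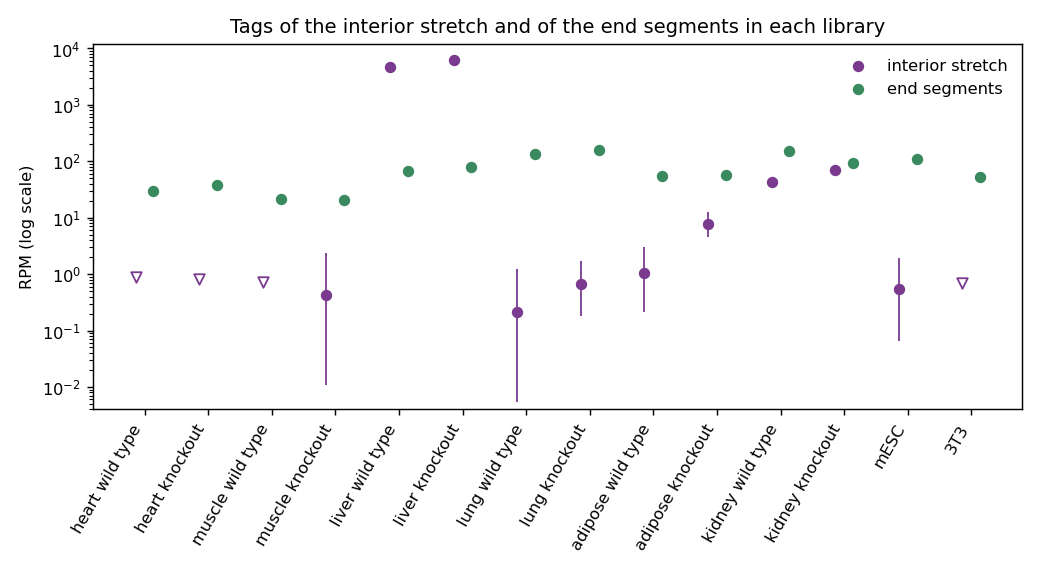
RPM in each of the 14 libraries (log scale) for the interior stretch (purple) and the end segments (green). 95% exact binomial intervals are drawn for the interior stretch only, where it has tags, and open triangles mark the limit of 3 tags in libraries with 0. The interior stretch reaches 4663 and 6122 in liver and 42.3 and 69.5 in kidney, and the end segments stay between 20.2 and 157 in all libraries.

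Most sites carried few tags. Over all 14 libraries together, 46 of the 91 sites had fewer than 10 tags and 14 had 1 or 2, 17 were found in a single library and 3 in all 14. Tags were found at 65 sites in wild-type and 64 in knockout liver, and 37 sites, 35 of them in the interior stretch, had tags in liver libraries only. The same counts were not made over all 159969 sites, so they are not shown to differ from those elsewhere. The filter on low counts left 23 of the 91 sites for testing, 18 in the interior stretch and 5 in the end segments. Of these, 14 reached the filter's level in liver only and so had to differ between tissues, and the counts below describe the cluster without supporting that difference.

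With edgeR's quasi-likelihood test over all 23856 testable sites, 18 of the 23 tested sites were called higher in liver than in the mean of the other 5 tissues (adjusted p under 0.05 and 4-fold), where 13.8% of all tested sites were called. DESeq2 called 10 of these 18, and 11.7% of all tested sites. No site was called lower (9.88% of all). All 18 were in the interior stretch, with log2 differences of 6.08 to 13.52 and adjusted p of at most 1.47e-06. The median log2 difference of the 23 was 7.76, against -0.087 over all tested sites. Because several tissues had 0 tags, the fitted differences depend on the prior count that edgeR adds and are no measured folds. The contrast is with the mean of the fitted log levels of the other 5 tissues, in which tissues at 0 weigh heavily. The 5 tested sites of the end segments had liver log2 differences of -1.37 to 0.94.

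5 sites held 94.4% of the cluster's tags in wild-type and 95.4% in knockout liver. They are called A to E here in order of position along the minus strand, from which all 5 were read. Site A (chr4:61808800-61808911) was the most abundant, with 7724 tags in wild-type and 10534.3 in knockout liver, 68 and 66 in kidney, 1 and 5 in white adipose tissue and 0 in the other 8 libraries. Its level in liver was 2740 ± 881 CPM (SD, n = 2), and the lower liver library was 119-fold above the highest library of another tissue. Its log2 difference in liver was 13.52 (SE 0.43, adjusted p = 4.65e-35 by edgeR).

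Sites B, C and D lay within 955 nt of each other. Site B (chr4:61745453-61745590) had 3510 tags in wild-type and 4720 in knockout liver and 23 and 44 in kidney. Its level in liver was 1234 ± 385 CPM (SD, n = 2), 81.0-fold above the highest library of another tissue in the lower of the 2 libraries. Site C (chr4:61744794-61744851) had 1040 and 1076 tags in liver and 2 and 9 in kidney. Site D (chr4:61744469-61744602) had 4819 and 3047.5 tags in liver and 51 and 52 in kidney, and its liver level was 1147 ± 246 CPM (SD, n = 2). At each of the 3 sites, every liver library was far above every library of the other 5 tissues, in which no library outside kidney had more than 1 tag. The log2 differences in liver were 12.28 (SE 0.41) for B, 12.20 (SE 0.49) for C and 12.82 (SE 0.44) for D.

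Site E (chr4:60430920-60430953) lay more than 1 Mb from the others, near the other end of the interior stretch. It had 1674.5 tags in wild-type and 429 in knockout liver, 3 and 8 in kidney, 4 in knockout white adipose tissue and 0 elsewhere. The lower liver library was 63.4-fold above the highest library of another tissue, and the fitted log2 difference was 11.07 (SE 0.51). Like most interior sites it passed the filter through liver alone, so that this difference is a description. Its level in liver was 298 ± 228 CPM (SD, n = 2), and in proportion to their level its 2 liver libraries differed more than those of A to D, by 3.35-fold. Its wild-type liver value was a single entry that is not a whole number, and its knockout value was whole.

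The remaining interior sites were sparse. The site at 61252967 on the minus strand had 163 and 192 tags in wild-type and knockout liver, 3 and 4 in kidney and 0 in all other libraries. That at 61744711, between D and C, had 116.5 and 34 in liver and 1 in each kidney library. At 60671352 there were 68.3 and 51.5 tags in liver and 4 and 5 in kidney. The most abundant interior site of the plus strand, at 61759277, had 97 and 47 tags in liver, 1 in knockout white adipose tissue and 0 in kidney. The plus strand gave 235 of the interior tags in wild-type and 161 in knockout liver, so that 98.8% and 99.2% were on the minus strand.

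Along the chromosome, the sites repeated at long intervals. Among sites of at least 10 tags, and joining those within 5 kb, the interior stretch held 10 groups on the minus strand and 5 on the plus strand. Neighbouring minus-strand groups were 56.0 to 520.7 kb apart, with a median of 153.8 kb. The 2 highest groups were neighbours at the end of the stretch, with A in one and B, C and D in the other. At 7 places on the minus strand of the stretch, another end lay 567 to 1474 nt upstream of an end, as B does 955 nt upstream of D. These 7 do not hold every pair of nearby ends. Nearer upstream ends left out of them include C, 281 nt from D, and the site at 61253184, with 9 tags, near 61252967. The upstream end was nearly unused at A, with 7 tags at a site 771 nt away against 18398.3 at A itself over all libraries. At the site 804 nt upstream of 61252967 there were 5 tags against 362, and B and D had 8300 and 7970.5. Sparse pairs also used both ends, with 23 tags upstream and 16 downstream at 61534687, 8 and 16 at 61689442, and 3 and 6 at 61711463.

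**Figure D2:**
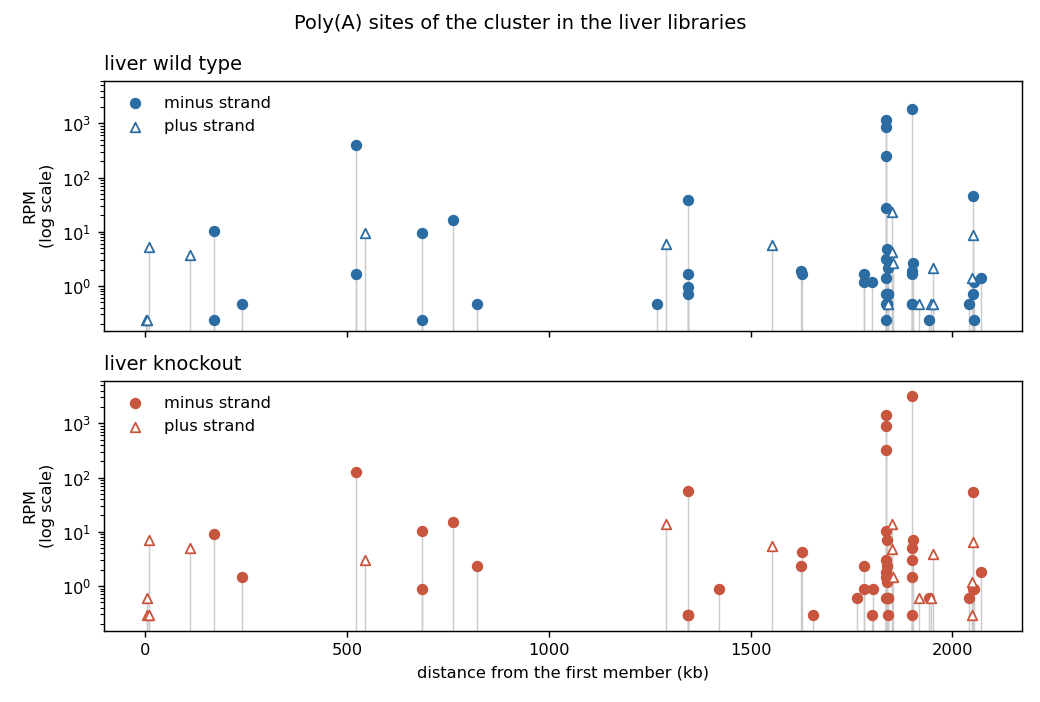
RPM (log scale) at each site with tags in wild-type (top) and knockout liver (bottom), against distance from the first site of the region in kb, with minus-strand sites as filled circles and plus-strand sites as open triangles. The highest sites stand together at the right of the interior stretch, site E stands apart at the left, and the same sites are high in both libraries.

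Kidney had the second highest interior signal, far below that of liver. The stretch had 42.3 RPM in wild-type kidney (95% exact binomial interval 36.0 to 49.4) and 69.5 in knockout kidney (60.2 to 79.9). Of the 23 tested sites, 6 were called higher in kidney than the mean of the other 5 tissues' fitted log levels, where 13.8% of all tested sites were called. At all 6 kidney was below liver, and the calls set it against heart, muscle, lung and white adipose tissue at or near 0. All 6 were also called in liver, and they were A, B, C, D, 61252967 and 60671352, with log2 differences of 2.68 to 5.08 and adjusted p of at most 0.0121 by edgeR. The last 2 had 3 to 5 tags in each kidney library. The kidney level of site A was 16.9 ± 1.22 CPM, against 2740 in liver, and that of D 13.0 ± 1.39, against 1147 (SD, n = 2). No site was called higher in heart, muscle, lung or white adipose tissue, where 9.15%, 8.61%, 12.5% and 8.65% of all tested sites were. None was called lower in heart, lung, white adipose tissue or kidney, against 2.98%, 4.71%, 3.39% and 4.07% of all. At an unadjusted p under 0.05 in either direction there were 1 of the 23 sites in heart, 2 in muscle, 1 in lung, 2 in white adipose tissue, 9 in kidney and 19 in liver. Of all 23856 tested sites there were 7531, 8908, 10850, 7899, 9442 and 10677 in the same order. 1 site was called lower in muscle (6.86% of all), the end-segment site at 61958529, which is named after its values were seen and had 1 and 0 tags there.

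The kidney signal was set beside other liver sites. Outside the region, 735 sites were called higher in liver with at least 50 CPM and both liver libraries above the other 10. Their level in kidney was a median 6.80% of that in liver in wild type and 6.97% in knockout, with the middle 90% from 0.320% to 63.1% and from 0.460% to 59.7%. The interior stretch was at 0.705% and 0.817%, above 21.8% and 18.6% of those sites. In the libraries of the other 4 tissues the stretch was at 0 to 0.101% of its liver level. Whether liver RNA in the kidney libraries had a part in the kidney tags was not tested.

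The leading sites in kidney were A, D and B, as in liver. Within the interior stretch, the percentage of tags at other sites between a liver and a kidney library was 13.3 to 23.4, and it was 17.6 between the 2 liver libraries and 17.0 between the 2 kidney libraries. Site A took 39.4% of the stretch in wild-type and 51.4% in knockout liver, and 42.5% and 33.3% in kidney. D took 24.6% and 14.9% in liver and 31.9% and 26.3% in kidney, and B took 17.9% and 23.0% in liver and 14.4% and 22.2% in kidney. E took 8.55% and 2.09% in liver and 1.88% and 4.04% in kidney, where it rested on 3 and 8 tags.

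**Figure D3:**
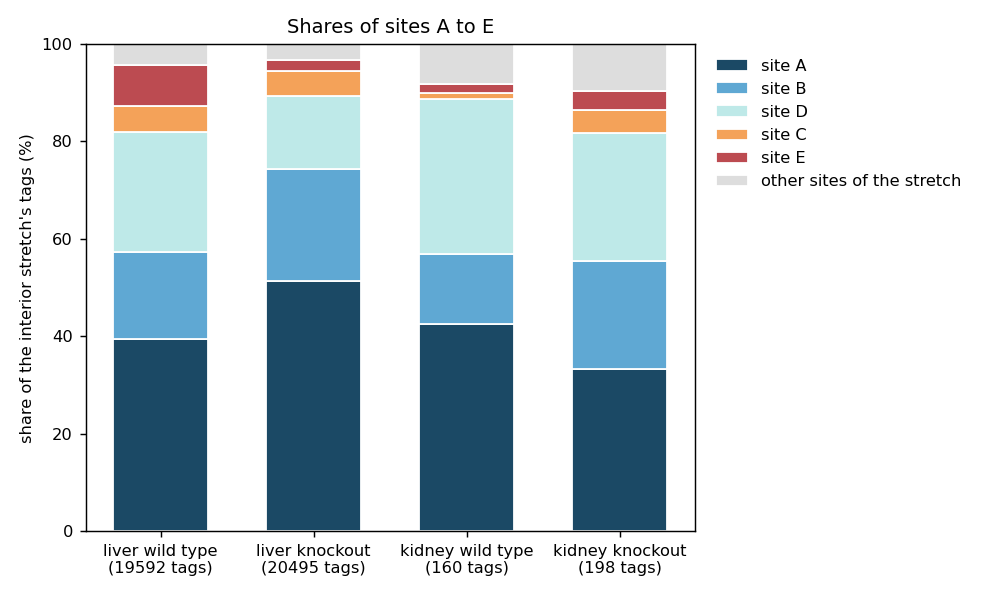
Share of the interior stretch's tags (%) at sites A to E and at all other sites together, in the 2 liver and 2 kidney libraries, each bar summing to 100% with the library's tags under it. Site A is the largest share in all 4 libraries, from 33.3% in knockout kidney to 51.4% in knockout liver.

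The end segments held sites with tags in all tissues. The site at 61961379 on the minus strand (chr4:61961374-61961489) had the most tags of the region in every library but those of liver. It had 440 and 181 tags in wild-type and knockout kidney, 423 and 530 in lung, 190.2 and 178 in liver, 67 and 40 in white adipose tissue, 36 and 46 in heart, 37 and 21 in muscle, 312 in mESC and 113 in 3T3. Heart and muscle were the lowest tissues, and wild-type and knockout kidney, at 104.1 and 48.8 CPM, lay on either side of both liver and both lung libraries. The mean levels were 76.5 ± 39.1 CPM in kidney, 58.6 ± 5.25 in lung, 54.4 ± 3.35 in liver, 18.7 ± 3.20 in white adipose tissue, 15.7 ± 0.795 in heart and 15.2 ± 2.13 in muscle (SD, n = 2). Its log2 difference in liver was 0.94 (SE 0.35, adjusted p = 0.0261 by edgeR), under the 4-fold needed for a call.

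The site at 61959444 on the plus strand (chr4:61959376-61959444) was less than 2 kb from it and varied more between the 2 libraries of a tissue. It had 42.3 and 217.4 tags in wild-type and knockout lung, 64.8 and 15 in kidney, 36 and 22 in liver, 30 and 13 in white adipose tissue, 15 and 40 in heart, 23 and 9 in muscle, 9 in mESC and 13 in 3T3. The knockout library was the higher of the 2 in lung and heart and the lower in the other 4 tissues. At the opposite end of the region, the plus-strand site at 59917610 (chr4:59917524-59917610) had 12 and 5 tags in muscle and 83 and 88 in lung, and between 16 and 56 in every other library. Neither site was called between liver and the other tissues by edgeR's test, with log2 differences of -0.21 (SE 0.44) and -0.12 (SE 0.39).

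No site of the cluster was called between knockout and wild type over the 6 tissues. By edgeR's quasi-likelihood test, 0 of the 23 tested sites were higher and 0 lower at an adjusted p under 0.05, where 0.277% and 0.0671% of all tested sites were called. The log2 differences ran from -1.65 to 1.04, with 11 above and 12 below 0, and a median of -0.011 against -0.023 over all tested sites. DESeq2 called 0 as well. At an unadjusted p under 0.05 there were 2 sites, against 1663 of all tested sites, and the smallest adjusted p was 0.575. These 2 were 61744711 (log2 -1.35, SE 0.57) and the plus-strand site at 60453979 (log2 -1.65), the latter named after its values were seen. On simulated counts this test recovered 92% of 200 sites changed 4-fold among 22296 tested. The changed sites were drawn from those with a mean of 20 tags or more. The interior sites, however, have tags in few tissues. Their genotype difference rests on 1 pair of liver libraries and, at A to E, also on few tags in kidney. At E it was -0.30, between log2 ratios of -1.74 in liver and 1.60 in kidney, the latter from 3 and 8 tags. At D it was -0.046, between -0.44 in liver and 0.22 in kidney. Those of A, B and C also lay between their liver and kidney ratios.

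In liver, with 1 library of each genotype and no test, the abundant sites differed in the direction of their ratios. With TMM scaling the cluster's summed tags were 1.22-fold higher in knockout than in wild-type liver (95% interval 1.19 to 1.24, counting error only). A single entry of 10261.3 at site A, which is not a whole number, holds much of the knockout sum, and with such entries set to 0 the log2 ratio turned from 0.28 to -0.56. Site A was 1.59-fold higher (1.54 to 1.64), B 1.57-fold higher (1.50 to 1.64) and C 1.20-fold higher (1.11 to 1.31). D was 1.36-fold lower in the knockout (1.30 to 1.42) and E 3.35-fold lower (3.01 to 3.73). Of the less abundant sites, 61744711 was 2.93-fold lower (1.98 to 4.43), 61759277 was 1.77-fold lower (1.24 to 2.57) and 61252967 was 1.37-fold higher with a lower bound of 1.11. All 1674.5 wild-type tags of E, and 108.5 of the 116.5 at 61744711, are entries that are not whole. The knockout values of these sites are whole, so their decreases rest on such entries and are not kept with them set to 0. The plus-strand site at 60453979, which lies 23.1 kb from E, had 40 tags in wild-type and 10 in knockout liver and was 3.43-fold lower (1.69 to 7.70).

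These ratios can be read against those of all liver sites. Of the 9 sites of the cluster at 20 CPM or more in either liver library, 5 were higher in the knockout, 2 were at least 2-fold lower (22.2%), 0 were 2-fold higher, and the median log2 ratio was 0.13. Among all 5054 liver sites at that level the median was -0.10 and 10.9% differed 2-fold. Among the 735 other sites that set liver apart, the median was -0.08, 7.62% differed 2-fold, and 7 (0.952%) were at least as low in the knockout as E. E thus lay outside the middle 90% of those sites, which ran from -0.93 to 0.77 on the log2 scale, and A and B lay within it, at 0.67 and 0.65. The 2 sites at least 2-fold lower were E and 61744711. Their wild-type tags were wholly and mostly entries that are not whole numbers, so the place of these 2 among other sites rests on such entries.

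**Figure D4:**
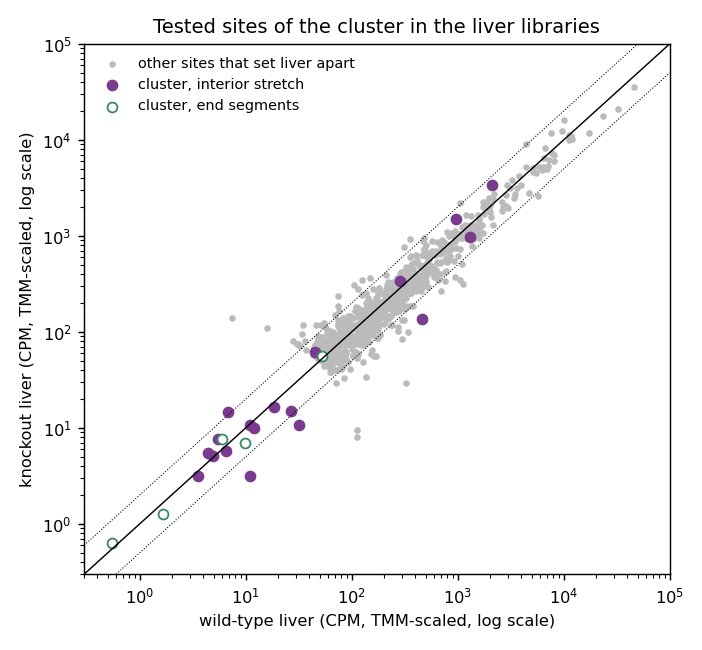
CPM in knockout against wild-type liver (both log scale) for the 23 tested sites of the cluster, in the interior stretch (filled purple) and the end segments (open green), over the 735 other sites that set liver apart (grey); the solid line marks equality and the dotted lines 2-fold. E lies below the lower dotted line and A and B lie within 2-fold above equality.

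The use of the 3 neighbouring ends differed between the 2 liver libraries. In the stretch from 61744469 to 61745590, the downstream end D had 50.7% of the tags in wild-type liver (95% exact binomial interval 49.7 to 51.7) and 34.2% in knockout liver (33.3 to 35.2). The upstream end B had 36.9% and 53.0%, and C, between them, had 10.9% and 12.1%. In kidney D had 65.4% of 78 tags in wild type (53.8 to 75.8) and 48.6% of 107 tags in knockout (38.8 to 58.5), with overlapping intervals, and B had 29.5% and 41.1%. The shift in the odds of D against B between the liver libraries was -1.09 on the log2 scale. Of 1299 other pairs of neighbouring sites in liver, 13.1% shifted as much or more, and the middle 90% ran from -1.15 to 1.22. With near-identical copies, whether the 3 ends belong to 1 gene was not tested.

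**Figure D5:**
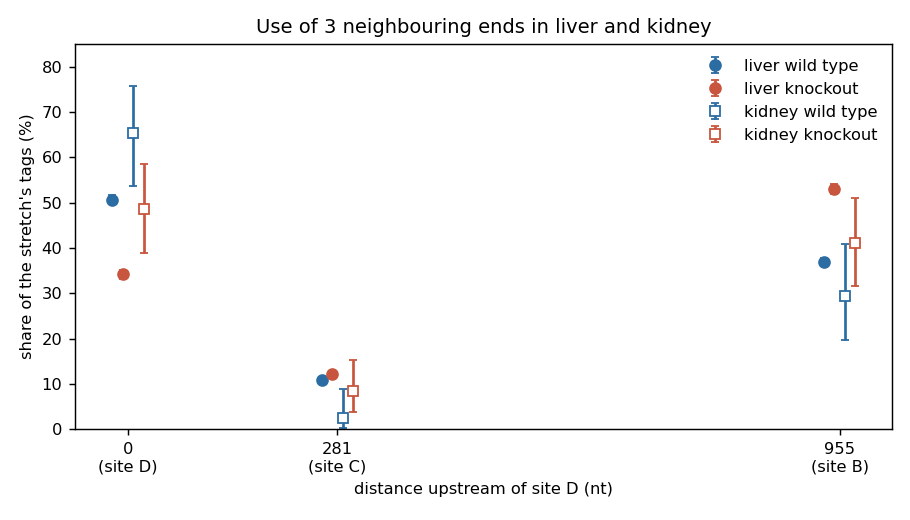
Share of the tags (%) of the stretch from D to B at each of the 3 ends, against distance upstream of D in nt, in liver (filled) and kidney (open) of wild type (blue) and knockout (red), with 95% exact binomial intervals. D leads in wild-type liver at 50.7% and B leads in knockout liver at 53.0%.

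In the other tissues, the summed ratio of knockout to wild type depended on which sites were summed. In kidney the 91 sites together were 1.41-fold lower in the knockout (95% interval 1.25 to 1.58), but the end segments were 1.92-fold lower while the interior stretch was 1.41-fold higher (1.14 to 1.75). The site at 61961379 accounted for most of the former, and was 2.13-fold lower (1.79 to 2.55) in knockout kidney. In white adipose tissue the interior stretch had 3 tags in wild type and 16 in knockout. Summed over all 91 sites, the knockout level divided by the wild-type level was 1.04 in heart, 0.806 in muscle, 1.09 in lung and 1.08 in white adipose tissue, each with an interval that included 1. With total-count scaling it was 1.30 in heart and 1.18 in lung (1.07 to 1.31), and these 2 intervals lay above 1.

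Values that are not whole numbers were few in the region, and in knockout liver 1 of them carried much of the signal. Of the deposited entries in the region, 4 of 93 in wild-type liver and 3 of 90 in knockout liver were more than 0.01 from a whole number, which is 4.30% and 3.33%, against 1.99% and 2.77% in the rest of those libraries. They held 10.3% of the cluster's tags in wild-type liver, against 38.4% in the rest, and 50.1% in knockout liver, against 41.8%. In wild-type lung they held 6.89%, in knockout lung 22.6% and in wild-type kidney 8.69%, against 30.5%, 40.3% and 38.4% in the rest. The largest were 10261.3 at site A in knockout liver and 1674.5 at site E in wild-type liver, while A in wild-type and E in knockout liver were whole. At D, an entry of 91.5 in knockout liver lay beside whole entries. The other entries were at 60671352 in both liver libraries (68.3 and 51.5), at 61744711 and 61961379 in wild-type liver (108.5 and 187.2), and at 61959444 in wild-type lung, knockout lung and wild-type kidney (42.3, 214.4 and 64.8). The region had none in heart, muscle, white adipose tissue, knockout kidney, mESC or 3T3. The deposited values carry 1 decimal, and the sources used here do not say how they arose. Whether sharing of tags between copies had a part in them was not tested.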

How the data were processed

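The deposited values are the authors' estimated counts: each gives the tags of 1 poly(A) site in 1 library, unscaled and in part not whole. CASAVA 1.7 called the bases and Bowtie aligned the reads to mm9, per the submitters' processing notes. The treatment of reads that match several copies was not given in the sources used here.

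Intervals of the same strand that overlapped or touched in any of the 14 libraries were joined and their values added. A site's position is the 3′ end of its most abundant interval. For the tests the sums were rounded to whole numbers, and edgeR 4.0.16 was fitted to the 12 tissue libraries (filterByExpr with a minimum count of 10, TMM scaling, quasi-likelihood, terms for the 6 tissues and for genotype, 5 residual degrees of freedom), with Benjamini-Hochberg adjustment over 23856 sites. With genotype as a term, the 2 libraries of a tissue served as replicates, so p-values measure only the spread between single libraries. That spread was estimated mostly from all tested sites together, with a median of 55.6 prior degrees of freedom beside the 5 residual ones. The p-values and SEs therefore rest little on the spread of a site's own libraries. Tissue calls needed a 4-fold difference besides an adjusted p under 0.05, which alone sufficed for genotype. CPM is TMM-scaled. SE is the log2 difference divided by the square root of its F statistic. Within-tissue ratios have exact binomial (Clopper-Pearson) 95% intervals on the tags. The percentage of tags at other sites is 50% of the summed absolute differences in site shares.

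Named sites were the 12 of most tags, the most abundant in each library, the 3 largest liver ratios per direction at 20 CPM or more, and the most abundant on the plus strand. The members and lists were chosen with earlier results of these data known. On simulated counts, 99.5% of 200 sites raised 8-fold in liver were recovered among 18562. Alternatives were DESeq2 1.42.0, total-count scaling, no filter, other treatments of values that are not whole, merging sites up to 24 nt apart, and leaving out libraries or tissues.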

Additional observations from a re-analysis of the deposited data

Results flagged for a closer look

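3 results moved in opposite directions between knockout and wild type in different tissues. Each tissue has 1 library per genotype, and the differences between tissues were not tested. The plus-strand site at 61959444 was higher in knockout heart, at 1.94 times the wild-type level (95% exact binomial interval 1.05 to 3.79), and lower in knockout kidney, at 0.263 times (0.139 to 0.467). The same site was higher in knockout lung, at 3.63 times (2.60 to 5.18), against the same 0.263 in kidney, and its lung and wild-type kidney tags come mostly from entries that are not whole. The summed tags of the 91 sites were higher in knockout liver, at 1.22 times (1.19 to 1.24), and lower in knockout kidney, at 0.711 times (0.632 to 0.799). The liver direction turns, to a log2 ratio of -0.56, with entries that are not whole set to 0. In kidney the end segments set that sum, and the interior stretch alone was higher in the knockout, at 1.41 times. The intervals cover counting error only.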

How the results depend on the processing

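Leaving out each library in turn gave liver log2 differences of 13.35 to 13.85 at A and 9.35 to 13.21 at E. Other settings gave similar differences at A to D with wider SEs. Setting entries that are not whole to 0 gave SEs of 1.74 at A, 1.21 at B, 1.24 at C and 1.38 at D. DESeq2 gave SEs of 0.60 at A, 0.62 at B, 3.92 at C, 2.68 at D and 3.63 at E. The 18 sites called higher in liver, beside 13.8% of all tested sites, became 10 with DESeq2 (11.7% of all), all 10 among the 18. They became 35 of 88 tested with no filter on low counts (4.48% of all). With entries that are not whole set to 0, there were 13 calls among 18 tested sites (9.15% of all). Without wild-type liver, 16 of the 18 remained. The count of genotype calls stayed at 0 under each alternative run, including the fit with no replicate block, that is with no term for tissue, which called 0. Each printed count of calls per setting counts sites of the cluster only, and each percentage beside it is of all sites tested in that setting. Of the named sites, 61252967, 61744711 and 61759277 were among those that lost their liver call with DESeq2, at log2 differences of 9.09, 8.10 and 8.37.

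With entries that are not whole set to 0, the cluster had 6880 RPM in wild-type and 5319 in knockout liver and 292.4 and 275.6 in kidney, the log2 ratio of knockout to wild-type liver turned from 0.28 to -0.56, and the percentage of tags at other sites rose from 17.6 to 41.1. A single entry at site A holds 10261.3 of the 20759.3 tags of knockout liver. With nuclear tags only, liver had 5015 and 6561 RPM and kidney 255.5 and 195.4. The minus strand alone gave 4656 in wild-type liver and 164.9 and 141.5 in kidney, and the interior stretch alone, chosen after seeing the data, gave 4663 in wild-type liver and 42.3 and 69.5 in kidney. Total-count scaling gave log2 ratios of 0.39 in liver and -0.27 in kidney, and the interior stretch alone turned kidney to 0.50.

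Several log2 differences that were not called changed sign. With entries that are not whole set to 0, the liver difference became -0.17 at 61961379 and 1.55 at 61959444, and the genotype difference -0.41 at A, 0.32 at D, 0.18 at 61961379 and 0.55 at 61959444. DESeq2 gave genotype differences of 0.38 at D and 0.57 at E. Total-count scaling gave 0.12 at D, 0.061 at 61959444, 0.041 at 59917610 and 0.12 at 60671352. The genotype difference at 61959444 was 0.0083 with no replicate block, 0.0090 without both white adipose libraries and 0.24 without both kidney libraries, and that at D was 0.31 without both liver libraries. Leaving out each library in turn gave liver differences of -0.43 to 0.15 at 61959444 and -0.39 to 0.18 at 59917610. It gave genotype differences of -0.26 to 0.37 at D, -0.91 to 2.08 at E, -0.62 to 0.24 at 61959444, -1.50 to 0.11 at 61744711, -0.81 to 1.55 at 61759277 and -0.18 to 0.43 at 60671352. At D, E, 61744711, 61759277 and 60671352 the sign turned when either liver library was left out.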
